A study of Mus musculus with 6 samples.

Results

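The macrophage and myeloid genes described here are 38 genes that encode surface receptors, signaling adaptors, complement subunits, a transcription factor and effector proteins of macrophages and related myeloid cells. They were chosen by name, with earlier results of these data known, and all 38 had a probe set among the 20239 probe sets with a gene symbol. Log2 levels were measured on 6 whole-transcript mouse arrays, 3 of control and 3 of asthma. Cells came from C57BL/6J mice that carry both the SMA-GFP and the NG2-DsRed transgene, in both groups. The first is driven by a rat α-smooth muscle actin promoter and marks smooth muscle, and the second by a mouse NG2 promoter and marks vascular smooth muscle, pericytes and some macrophages. According to the methods, bronchial smooth muscle cells (BSMCs) were sorted from dissociated lung as CD45- CD31- cells with hrGFP and without DsRed. Sensitization of asthma mice used 50 µg of ovalbumin (OVA), given on day 0 and again on day 7, while control mice received PBS instead. Mice of both groups then inhaled nebulized OVA on 5 days, from day 14 to day 18, and lungs were taken on day 19. The labels instead give microdissected tissue, single animals and OVA sensitization for every sample, whereas the methods give RNA pooled from several mice per array, so that p-values measure the spread between these arrays. The methods describe the mice as adults.

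The methods leave 1 asthma array out as an outlier without naming it. In the deposited values asthma 2 stood apart, at a distance of 78.4 from the median position on the first 2 principal components against 3.27 to 28.3 for the other arrays. Its values were also compressed, with an SD over genes of 1.72 against 1.98 to 2.04 on the others, while the array medians lay between 6.76 and 6.82. The main comparison therefore uses 5 arrays (3 control arrays, asthma 1 and asthma 3), and the difference of each member and the median of each list are also given with all 6. Acta2, the α-smooth muscle actin gene that marks the sorted cells, had a log2 level of 12.39, 11.87 and 12.13 on control 1 to 3, 12.44 on asthma 1, 12.09 on asthma 2 and 12.52 on asthma 3. In these bulk samples, fewer cells of a type and less RNA per cell cannot be told apart.

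Macrophages patrol the airways, clear particles and dying cells, and present or scavenge antigen. Their Fc receptors and several C-type lectins signal through adaptors with an immunoreceptor tyrosine-based activation motif (ITAM), while an inhibitory Fc receptor restrains that signal. Tissue macrophages make the C1q subunits that start the classical complement pathway. Their identity depends on the growth factor receptor CSF1R and on PU.1, the transcription factor that Spi1 encodes and that binds purine-rich sites, alone or together with interferon regulatory factors (IRFs), in the promoters of many myeloid genes.

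Promoter windows of 4 members are shown, chosen after their values were seen. In 12 members the levels on asthma 1 and asthma 3 were above every control array and the window held a PU.1-like sequence. These 4 had the largest differences with 5 arrays among the 12. Whatever their window held, 27 of the 38 members lay above in this way, against 11.9% of all genes. A link between sequence and difference was not tested. The sequences shown are RefSeq windows of the GRCm38.p6 assembly, from 250 bases before to 50 bases after the annotated start. They are written along the gene's strand, and for Clec7a the first of 2 listed windows is shown. Capitals mark a match on either strand to a composite PU.1 and IRF motif (the PU.1 core GGAA, then 2 bases of any kind, then GAAA), or to GAGGAAG, a PU.1 motif. The windows lie at chr6:129472730-129473029 (minus strand) for Clec7a, chr1:170976022-170976321 (minus strand) for Fcgr2b, chr4:136892865-136893164 (minus strand) for C1qc and chr3:95526536-95526835 (plus strand) for Ctss.
Clec7a: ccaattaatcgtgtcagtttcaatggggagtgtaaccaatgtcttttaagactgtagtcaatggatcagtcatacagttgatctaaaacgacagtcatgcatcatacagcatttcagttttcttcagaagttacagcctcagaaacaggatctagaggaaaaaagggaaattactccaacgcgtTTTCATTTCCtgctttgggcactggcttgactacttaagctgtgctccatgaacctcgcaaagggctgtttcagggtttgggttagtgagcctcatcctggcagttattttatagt
Fcgr2b: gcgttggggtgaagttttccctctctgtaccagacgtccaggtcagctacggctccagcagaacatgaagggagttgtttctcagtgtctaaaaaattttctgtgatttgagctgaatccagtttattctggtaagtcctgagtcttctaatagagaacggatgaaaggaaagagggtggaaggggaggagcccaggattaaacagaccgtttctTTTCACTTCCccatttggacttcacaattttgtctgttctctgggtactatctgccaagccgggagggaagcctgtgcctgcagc
C1qc: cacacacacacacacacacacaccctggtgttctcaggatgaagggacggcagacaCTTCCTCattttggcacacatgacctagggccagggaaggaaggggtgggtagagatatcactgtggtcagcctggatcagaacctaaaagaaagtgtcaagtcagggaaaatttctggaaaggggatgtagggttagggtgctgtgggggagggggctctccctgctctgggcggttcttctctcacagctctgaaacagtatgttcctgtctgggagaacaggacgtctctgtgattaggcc
Ctss: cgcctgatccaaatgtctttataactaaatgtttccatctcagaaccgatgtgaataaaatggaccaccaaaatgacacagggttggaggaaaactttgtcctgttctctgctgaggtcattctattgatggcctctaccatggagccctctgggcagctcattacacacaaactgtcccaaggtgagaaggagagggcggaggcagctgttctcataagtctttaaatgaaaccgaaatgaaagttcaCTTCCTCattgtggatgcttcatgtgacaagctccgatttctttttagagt
The composite match began at position -66 from the start site in Clec7a and at -35 in Fcgr2b, and the PU.1 match at -194 in C1qc and at -1 in Ctss, all on the strand opposite to the gene.

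Of the 38 members, 28 had a window in the RefSeq table. GAGGAAG matched in 11 of them (39.3%), against 12.9% of the windows of 15651 genes. The composite motif, which shares the core GGAA with GAGGAAG, matched in 4 (14.3%), namely Fcgr2b, Clec7a, Cd68 and Cybb, against 2.7% of all windows. TTGCNNAA, a C/EBP motif, matched in 3 (10.7%), against 9.8%. A match describes letters in a window and is not a measured binding site, and a window without a match says nothing of the factor.

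With 5 arrays, 36 of the 38 members had a higher mean log2 level in asthma than in control, against 43.7% of all genes, and the median difference was 0.62 against -0.02 over all genes. None passed the adjusted p of 0.25 by which the study called genes, where percent called was 0.0296 higher and 0.00988 lower among all genes. The limma adjusted p of the members ran from 0.480 to 0.901. At an unadjusted p under 0.05, 12 members were higher (4.53% of all genes) and 0 were lower (4.78% of all genes). Both asthma levels exceeded all 3 control levels in 27 members (11.9% of all genes), and 0 members lay below all of them (16.8% of all genes). The smallest p that an exact permutation of 3 arrays against 2 allows is 0.1.

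With all 6 arrays, the median difference was 0.16 against 0.03 over all genes, and 30 of 38 differences were positive against 55% of all genes. No member passed the adjusted threshold, which 0.00494% of all genes passed as higher, and the lowest limma adjusted p was 0.892. At an unadjusted p under 0.05, 2 members were higher (1.44% of all genes) and 0 lower (3.1%). All 3 asthma levels lay above all control levels in 4 members (4.16% of all genes), which were Fcgr1, Trem2, C1qa and Aif1, and 0 members lay below (7.83%). Where limma estimated array weights, asthma 2 received a weight of 0.0852 and 3 members passed the adjusted threshold as higher, Itgax (limma adjusted p = 0.237), Clec7a (0.244) and Msr1 (0.232), in a fit that called 1.28% of all genes higher.

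**Figure D1:**
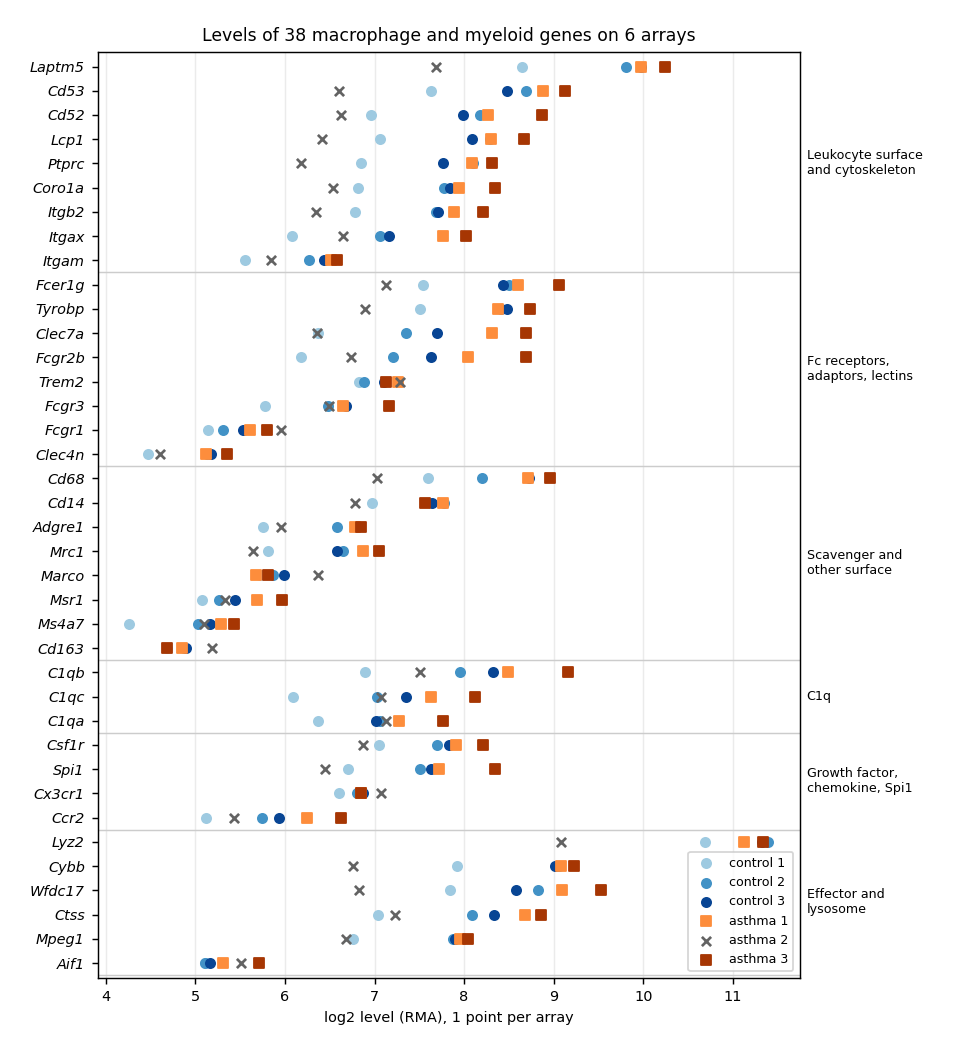
Log2 RMA level (horizontal axis) of each of the 38 genes (vertical axis, ordered by role), with 1 point per array: circles for control 1 to 3, squares for asthma 1 and 3, and crosses for asthma 2. Control 1 was the lowest control array for 38 of 38 genes, asthma 3 was the highest array of all 6 for 31, and asthma 2 the lowest of all 6 for 19.

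The member levels differed between arrays of the same group as well. The mean over the 38 genes was 6.53, 7.30 and 7.39 on control 1 to 3, 7.54 on asthma 1, 6.51 on asthma 2 and 7.82 on asthma 3. Control 1 had the lowest control level in 38 of 38 members, against 34.6% of all genes. Asthma 3 had the highest level of the 5 arrays in 32 members, against 23.8% of all genes, asthma 1 in 1 member and a control array in 5. Without control 1 the median difference of the members was 0.33, and without asthma 3 the number of members higher at an unadjusted p under 0.05 was 0, in a fit where 1.68% of all genes were.

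The first 9 genes encode surface and cytoskeletal proteins shared by most leukocytes. Their median difference was 0.67 with 5 arrays and 0.09 with 6. With 5 arrays the groups did not overlap in 8 of the 9, Ptprc being the exception. Ptprc encodes CD45, the antigen on which, according to the methods, leukocytes were removed before the arrays. Its log2 level was 6.84, 8.10 and 7.77 on control 1 to 3, 8.09 and 8.31 on asthma 1 and 3, and 6.18 on asthma 2. Asthma 3 was the highest and asthma 2 the lowest, with asthma 1 just below control 2. The difference was 0.63 (SE 0.353) with 5 arrays and -0.05 with 6.

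Itgax, the integrin subunit CD11c of dendritic cells and lung macrophages, had levels of 6.08, 7.06 and 7.16 in control, 7.77 and 8.02 on asthma 1 and 3, and 6.64 on asthma 2. Both retained asthma arrays lay above every control array, and asthma 2 lay within the control range. The difference was 1.13 (SE 0.328, limma adjusted p = 0.480), a 2.18-fold higher level, and 0.71 with 6 arrays. Cd52, a small glycoprotein of leukocyte membranes, was at 6.96, 8.18 and 7.99 in control, 8.27 and 8.86 on asthma 1 and 3, and 6.63 on asthma 2. Laptm5, a lysosomal membrane protein of hematopoietic cells, was at 8.65, 9.81 and 9.97 in control, 9.98 and 10.24 on asthma 1 and 3, and 7.68 on asthma 2. In both genes asthma 1 stood only slightly above the highest control, and asthma 2 stood below all controls.

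Their differences were 0.85 (SE 0.383) for Cd52 and 0.63 (SE 0.390) for Laptm5 with 5 arrays, and 0.21 and -0.18 with 6. The tetraspanin gene Cd53 was at 7.63, 8.69 and 8.48 in control, 8.89 and 9.13 on asthma 1 and 3, and 6.60 on asthma 2. Lcp1, the leukocyte actin-bundling protein L-plastin, was at 7.06, 8.29 and 8.08 in control, 8.30 and 8.67 on asthma 1 and 3, and 6.41 on asthma 2. The same order was seen in both, with control 1 below the other controls and asthma 2 below control 1. Cd53 differed by 0.74 (SE 0.308) and Lcp1 by 0.67 (SE 0.365) with 5 arrays, and by -0.06 and -0.02 with 6. The remaining members of this group were the integrin subunits Itgb2 and Itgam and the actin-binding coronin Coro1a, with differences of 0.66, 0.46 and 0.67 with 5 arrays and of 0.09, 0.23 and 0.13 with 6.

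Among 8 Fc receptors, ITAM adaptors and C-type lectins, 3 had an unadjusted p under 0.05 and 5 had groups that did not overlap, with a median difference of 0.51 with 5 arrays and 0.37 with 6. Clec7a, which encodes the β-glucan receptor Dectin-1, was at 6.37, 7.35 and 7.70 in control, 8.31 and 8.70 on asthma 1 and 3, and 6.36 on asthma 2. Asthma 2 stood at the level of control 1, while the other asthma arrays stood clear of the control range. The difference of 1.37 (SE 0.382, limma adjusted p = 0.480), or 2.58-fold, was 0.65 with 6 arrays. Fcgr2b, the inhibitory receptor for IgG, was at 6.18, 7.20 and 7.63 in control, 8.04 and 8.69 on asthma 1 and 3, and 6.74 on asthma 2. Its difference was 1.36 (SE 0.431, limma adjusted p = 0.483), or 2.57-fold, and 0.82 with 6 arrays. The windows of both genes, shown above, hold the composite motif.

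Fcgr1, the high-affinity IgG receptor, was at 5.14, 5.31 and 5.53 in control, 5.61 and 5.80 on asthma 1 and 3, and 5.95 on asthma 2. All 3 asthma arrays lay above the controls, and asthma 2 was the highest. The difference was 0.38 (SE 0.138) with 5 arrays and 0.46 (SE 0.160, limma adjusted p = 0.892) with 6. Fcer1g, the ITAM adaptor of activating Fc receptors, was at 7.54, 8.50 and 8.44 in control, 8.61 and 9.06 on asthma 1 and 3, and 7.13 on asthma 2. Tyrobp, the ITAM adaptor DAP12, was at 7.51, 8.41 and 8.48 in control, 8.38 and 8.74 on asthma 1 and 3, and 6.89 on asthma 2. The Fcer1g groups did not overlap once asthma 2 was left out, whereas asthma 1 fell below 2 controls for Tyrobp. Fcer1g differed by 0.68 (SE 0.314) and Tyrobp by 0.43 (SE 0.307), and with 6 arrays by 0.11 and -0.13.

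Trem2, a lipid receptor that signals through DAP12, was at 6.82, 6.89 and 7.11 in control, 7.26 and 7.12 on asthma 1 and 3, and 7.28 on asthma 2. It was named after its values were seen, as the asthma levels all lay above the controls, by a margin as small as 7.12 against 7.11. Its difference was 0.25 (SE 0.11) with 5 arrays and 0.28 with 6. The activating receptor Fcgr3 differed by 0.59 and 0.45, and the lectin Clec4n (Dectin-2) by 0.31 and 0.10.

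**Figure D2:**
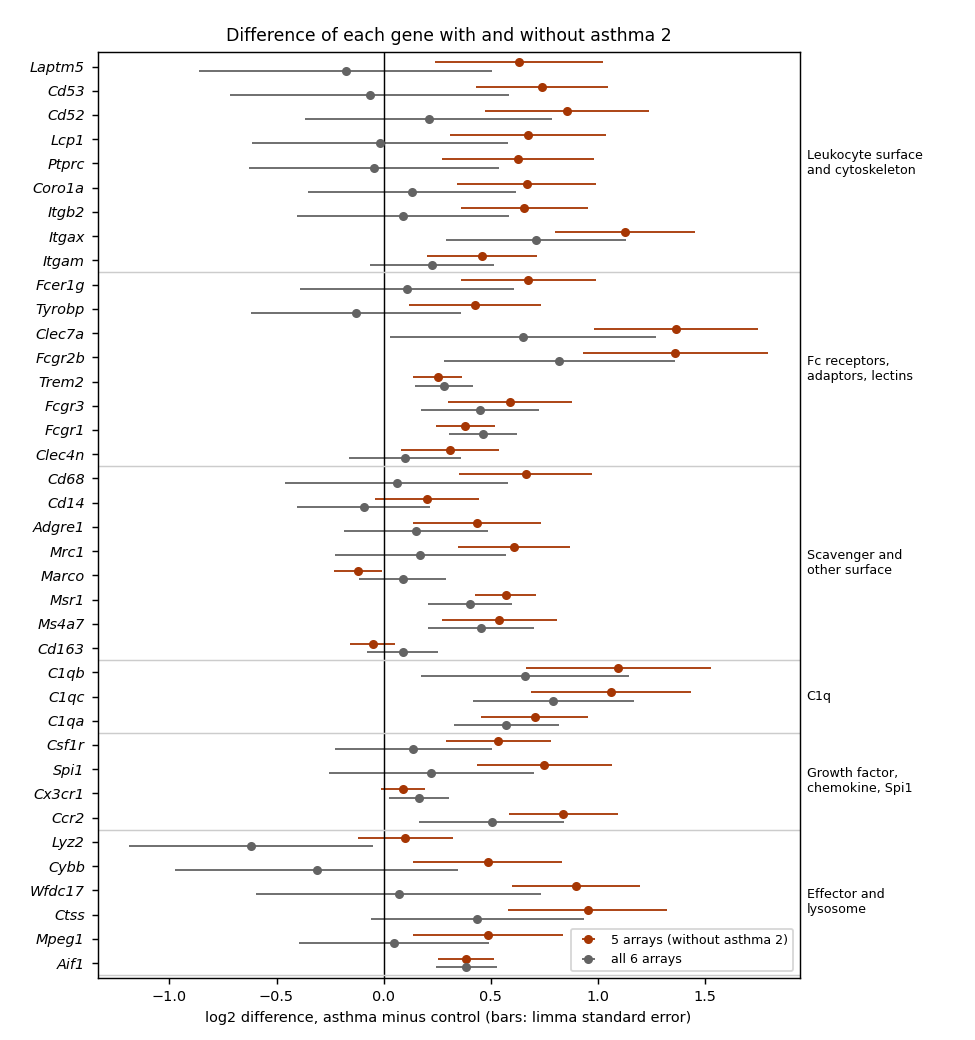
Log2 difference of asthma minus control (horizontal axis) for each of the 38 genes, with 5 arrays in red and all 6 arrays in grey. Bars are the limma standard error. With 5 arrays 36 differences are above 0, and with asthma 2 included 8 lie below 0.

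The 8 scavenger and other surface receptors had a median difference of 0.49 with 5 arrays and 0.12 with 6, and 3 had groups that did not overlap. Msr1, scavenger receptor A, was at 5.07, 5.26 and 5.44 in control, 5.69 and 5.97 on asthma 1 and 3, and 5.33 on asthma 2. The difference was 0.57 (SE 0.143, limma adjusted p = 0.480) and 0.40 with 6 arrays. Asthma 2 lay within the control range. Mrc1, the mannose receptor CD206, was at 5.81, 6.65 and 6.59 in control, 6.87 and 7.05 on asthma 1 and 3, and 5.64 on asthma 2, with a difference of 0.61 (SE 0.260) and of 0.17 with 6 arrays. Cd68, a glycoprotein of macrophage lysosomes, was at 7.59, 8.19 and 8.72 in control, 8.71 and 8.95 on asthma 1 and 3, and 7.03 on asthma 2. Its groups overlapped at the level of control 3, and it differed by 0.66 (SE 0.310) and 0.06.

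Adgre1, an adhesion receptor gene that is a classic marker of mouse macrophages, was at 5.75, 6.58 and 6.80 in control, 6.78 and 6.84 on asthma 1 and 3, and 5.96 on asthma 2. Cd14, the lipopolysaccharide co-receptor, was at 6.97, 7.77 and 7.65 in control, 7.77 and 7.56 on asthma 1 and 3, and 6.78 on asthma 2. Neither separated the groups, and the differences were 0.43 (SE 0.299) for Adgre1 and 0.20 (SE 0.244) for Cd14, or 0.15 and -0.09 with 6 arrays. Cd163, the hemoglobin scavenger receptor, and Marco, a scavenger receptor of alveolar macrophages, were the only members with a negative difference with 5 arrays, at -0.05 and -0.12, and both were 0.09 with 6. Asthma 2 gave the highest level of both, 5.19 for Cd163 and 6.37 for Marco. Ms4a7, a tetraspan membrane protein of macrophages, differed by 0.54 and 0.45.

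The 3 C1q genes had a median difference of 1.06, the highest of the 6 role groups, and of 0.66 with 6 arrays. All 3 had an unadjusted p under 0.05 and groups that did not overlap with 5 arrays, with limma adjusted p-values of 0.512 to 0.532. C1qa was at 6.37, 7.06 and 7.02 in control, 7.27 and 7.76 on asthma 1 and 3, and 7.12 on asthma 2. It separated the groups with asthma 2 as well, though by a margin of 7.12 against 7.06, and differed by 0.70 (SE 0.249) and 0.57. C1qb was at 6.90, 7.96 and 8.32 in control, 8.49 and 9.15 on asthma 1 and 3, and 7.51 on asthma 2. C1qc was at 6.09, 7.02 and 7.35 in control, 7.63 and 8.13 on asthma 1 and 3, and 7.08 on asthma 2. In both genes asthma 2 lay between control 1 and the highest control. The C1qb difference was 1.10 (SE 0.431, 2.14-fold) and that of C1qc 1.06 (SE 0.373, 2.08-fold), and they were 0.66 and 0.79 with 6 arrays.

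Growth factor and chemokine receptors and PU.1 made up 4 members, with a median difference of 0.64 with 5 arrays and 0.19 with 6. Ccr2, the receptor that draws monocytes out of the bone marrow, was at 5.12, 5.75 and 5.93 in control, 6.25 and 6.63 on asthma 1 and 3, and 5.43 on asthma 2. The difference was 0.84 (SE 0.256, limma adjusted p = 0.480) and 0.50 with 6 arrays. Spi1 was at 6.71, 7.51 and 7.63 in control, 7.72 and 8.34 on asthma 1 and 3, and 6.45 on asthma 2, and differed by 0.75 (SE 0.316) and 0.22. For both genes asthma 3 was the highest array. Csf1r, the receptor for CSF1 and IL-34, was at 7.05, 7.70 and 7.83 in control, 7.91 and 8.21 on asthma 1 and 3, and 6.87 on asthma 2, and differed by 0.54 (SE 0.245) and 0.14. Cx3cr1, the fractalkine receptor, was at 6.61, 6.80 and 6.87 in control, 6.85 on each of asthma 1 and 3, and 7.08 on asthma 2. It differed by 0.09 (SE 0.105), less than its standard error, and by 0.17 with 6 arrays, where asthma 2 was the highest array.

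The 6 effector and lysosomal members had a median difference of 0.49 with 5 arrays and 0.06 with 6, and groups did not overlap in 5 of them. Ctss, the lysosomal protease cathepsin S that trims the class II invariant chain, was at 7.04, 8.09 and 8.34 in control, 8.68 and 8.86 on asthma 1 and 3, and 7.22 on asthma 2. Wfdc17, a secreted whey acidic protein family member, was at 7.84, 8.82 and 8.57 in control, 9.09 and 9.53 on asthma 1 and 3, and 6.82 on asthma 2. The position of asthma 2 differed between them, as it lay within the control range for Ctss and below all controls for Wfdc17. Ctss differed by 0.95 (SE 0.371) and 0.44, and Wfdc17 by 0.90 (SE 0.300) and 0.07. Aif1, the actin-binding protein IBA1 of macrophages and microglia, was at 5.11, 5.11 and 5.16 in control, 5.31 and 5.71 on asthma 1 and 3, and 5.51 on asthma 2. All asthma arrays exceeded the controls, which spanned little, and the difference was 0.38 with both sets of arrays (SE 0.130 and 0.143).

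Cybb, the catalytic subunit of the phagocyte NADPH oxidase, was at 7.92, 9.06 and 9.02 in control, 9.09 and 9.22 on asthma 1 and 3, and 6.76 on asthma 2, and differed by 0.49 (SE 0.348) and -0.31. Lyz2, lysozyme M, was at 10.69, 11.39 and 11.32 in control, 11.13 and 11.34 on asthma 1 and 3, and 9.08 on asthma 2. Its retained asthma arrays lay within the control range, and its difference was 0.10 (SE 0.222) and -0.62 with 6 arrays. Lyz2 has a near-identical copy, Lyz1, whose transcripts its probes may also bind, so its value is uncertain. Mpeg1, the pore-forming protein perforin-2 of macrophages, differed by 0.49 and 0.05.

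The placement of asthma 2 differed between members of high and of low signal. It lay above all controls in 7 members, within their range in 12 and below in 19, whereas 45.7% of all genes lay above and 37.7% below. Of 26 members with a mean level over the median of all values, 6.80, it was below all controls in 18 and above in 3, as were 64.8% and 16.1% of all genes on that side. Of 12 members under that median, it was above all controls in 4 and below in 1, against 75% and 10.7% of all genes there. The inclusion of asthma 2 raised or kept the difference of Fcgr1, Aif1 and Trem2. Fcgr1 and Aif1 had mean levels of 5.56 and 5.32, under that median, and Trem2 a mean of 7.08, over it. C1qa (mean 7.10) and Cx3cr1 (6.84) were also over it and above all controls on asthma 2. Members over the median were placed much as all genes there, and members under it were above less often than all genes there. The part of the array's compression in these placements was not tested.

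Since the methods describe the removal of cells with CD45, each level was also set against that of Ptprc on the same array. This reference was chosen after the values were seen. Of the other 37 members, 5 were then above every control on asthma 1 and 3 (0.316% of all genes), and 3 of them on asthma 2 too (0.257% of all genes). Ptprc was at 6.84 on control 1 and at 8.09 and 8.31 on asthma 1 and 3. Subtracting it therefore lowers an unchanged gene on asthma 1 and 3 relative to control 1. By this measure 43.9% of all genes lay below every control with 5 arrays. As with Ptprc, control 1 was the lowest control in all 38 members, so these shares are not a fair comparison for them. Clec7a minus Ptprc was -0.48, -0.76 and -0.07 in control, 0.22 and 0.39 on asthma 1 and 3, and 0.17 on asthma 2. Fcgr2b minus Ptprc was -0.67, -0.90 and -0.14 in control, -0.05 and 0.38 on asthma 1 and 3, and 0.56 on asthma 2. The third gene was Itgax, with -0.77, -1.04 and -0.61 in control, -0.32 and -0.29 on asthma 1 and 3, and 0.46 on asthma 2. By this measure all asthma arrays lay above all control arrays for these 3 genes, by 0.74, 0.74 and 0.50 in the means of 5 arrays. On asthma 2, however, Ptprc itself was at 6.18, below all controls, so subtracting it raised the other levels there relative to control. As deposited, the asthma 2 levels of Fcgr2b and Itgax lay within the control range and that of Clec7a just below it. The position of asthma 2 by this measure depends on its low Ptprc level and is not separate evidence. Cd53 and Wfdc17 were above by this measure with 5 arrays and not with asthma 2.

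Lyz2 went the other way, with 3.84, 3.28 and 3.55 in control, 3.04 and 3.03 on asthma 1 and 3, and 2.90 on asthma 2. It was the only member below every control on all 3 asthma arrays by this measure (0.208% of all genes). This share also depends on the Ptprc levels. With 5 arrays Cd163 and Marco were below as well, as were 43.9% of all genes. These are differences within an array between probe sets, so they show unequal change between arrays and not the amount of either transcript. For the other members the asthma arrays were not separated from control in either direction.

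**Figure D3:**
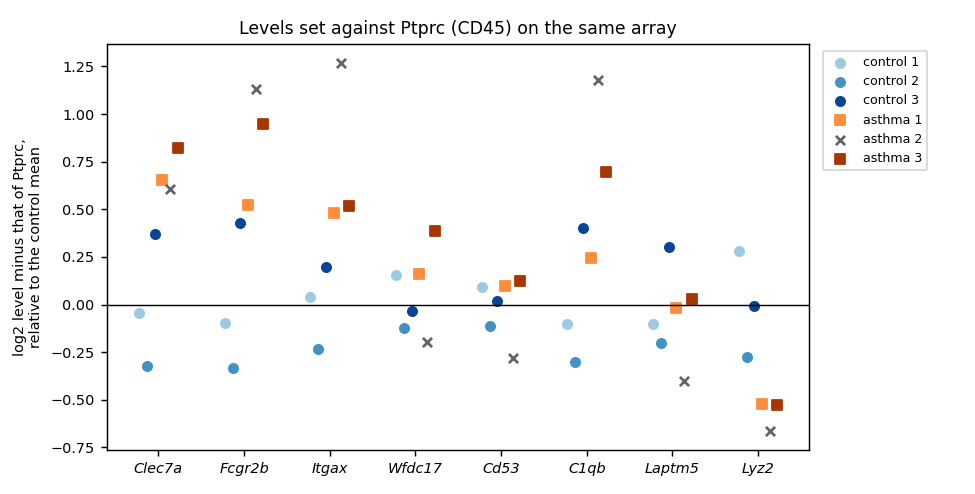
Log2 level minus that of Ptprc on the same array, relative to the mean of the 3 control arrays (vertical axis), for 8 genes (horizontal axis), with 1 point per array. For Clec7a, Fcgr2b and Itgax all asthma arrays lie above the controls and for Lyz2 all lie below, while Laptm5 overlaps. On asthma 2 Ptprc itself was below all controls, which raises the other genes there.

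Beside the members, 16 other lists of 203 measured genes (214 listed) were described. Over all genes, 4.53% were higher and 4.78% lower at an unadjusted p under 0.05 with 5 arrays. Of 38 measured genes of myeloid signaling, 9 were higher and 1 lower at an unadjusted p under 0.05 with 5 arrays, and their median difference was 0.38 (0.18 with 6 arrays). Among 15 products of alternatively activated macrophages, 13 were higher and 0 lower at that p, and the median was 1.18 (0.76 with 6 arrays). This list was chosen with earlier results of these data known. Several of its genes, such as Arg1, Retnla and Ccl24, are in the gene list that the study drew from these same arrays. Its counts are therefore not separate evidence. The 14 measured markers of alveolar macrophages had 3 higher and 1 lower and a median of -0.13 (-0.0989 with 6 arrays). The 14 of interstitial macrophages had 0 higher and 1 lower and a median of -0.16 (-0.18 with 6 arrays). Some genes were counted as higher in more than 1 list. Chil3 is in the alveolar list and Clec10a in that of myeloid signaling, and both are also in that of alternative activation. The medians of the macrophage lists thus differed, and the difference between lists was not tested. On control 1 the mean level was 8.09 in the interstitial list and 6.99 in the alveolar list, beside 6.53 for the members. Single levels in the interstitial list ran from 3.56 to 11.89. Which cells gave these transcripts was not tested, so these lists need not describe macrophages.

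Markers of other leukocytes had smaller medians than the members with 5 arrays, but not all of them with 6. At an unadjusted p under 0.05 with 5 arrays, 2 of 13 monocyte, 3 of 13 dendritic cell, 4 of 14 neutrophil, 2 of 8 eosinophil, 1 of 14 T and NK cell and 1 of 9 B cell genes were higher and 0 of each were lower. The shares over all genes were 4.53% higher and 4.78% lower, and such small counts were not tested against them. Ccl17 and Cd209a, counted here as dendritic cell genes, were also counted among the products of alternatively activated macrophages. The medians below are those of the 6 lists. Their medians ran from 0.08 for eosinophils to 0.39 for B cells, beside 0.62 for the members. With 6 arrays they ran from 0.02 for monocytes to 0.17 for eosinophils and 0.23 for dendritic cells, both above the 0.16 of the members. In the eosinophil list, Rnase2a, an eosinophil ribonuclease gene of the mouse, was at 4.70, 4.76 and 6.76 in control, 9.26 and 9.44 on asthma 1 and 3, and 6.30 on asthma 2. Its difference of 3.94 with 5 arrays was the largest of that list and does not stand for the rest. Which cells gave the Rnase2a transcript was not tested. Of the 8 measured genes 5 had a positive difference, while Epx, Prg2 and Prg3 differed by -0.07, -0.07 and -0.13. With 6 arrays these 3 differed by -0.05, 0.18 and 0.08. Of 9 mast cell and basophil genes 0 were higher or lower, and their median was -0.13 (0.09 with 6 arrays). No gene of any of these lists passed the adjusted p of 0.25 in limma, with 5 or 6 arrays.

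Non-leukocyte markers also moved between arrays. The mean level of 12 smooth muscle genes was 11.05, 9.99 and 10.62 in control, 11.01 and 11.30 on asthma 1 and 3, and 10.27 on asthma 2. With 5 arrays 2 of these genes were higher at an unadjusted p under 0.05 (4.53% of all genes). Their median difference was 0.62 with 5 arrays and 0.34 with 6. The 10 endothelial genes averaged 8.59, 9.44 and 8.60 in control, 8.47 and 8.51 on asthma 1 and 3, and 7.02 on asthma 2, with a median difference of -0.43 (-0.94 with 6 arrays). Control 2 stood above the other controls, and asthma 1 and 3 only slightly below control 1 and 3. Of the endothelial genes 0 were lower at an unadjusted p under 0.05 with 5 arrays (4.78% of all genes). The 10 epithelial genes averaged 7.82, 7.95 and 8.11 in control, 7.65 and 7.51 on asthma 1 and 3, and 7.00 on asthma 2, with a median of -0.44 (-0.56 with 6 arrays). Of these, 5 were lower at an unadjusted p under 0.05 with 5 arrays (4.78% of all genes). The endothelial and epithelial means lay below every control on all 3 asthma arrays, and the smooth muscle mean overlapped. The medians of 8 vascular mural and 9 fibroblast genes were -0.0348 and -0.15 with 5 arrays and -0.27 and -0.0402 with 6. The part of these lists in the member differences was not tested.

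**Figure D4:**
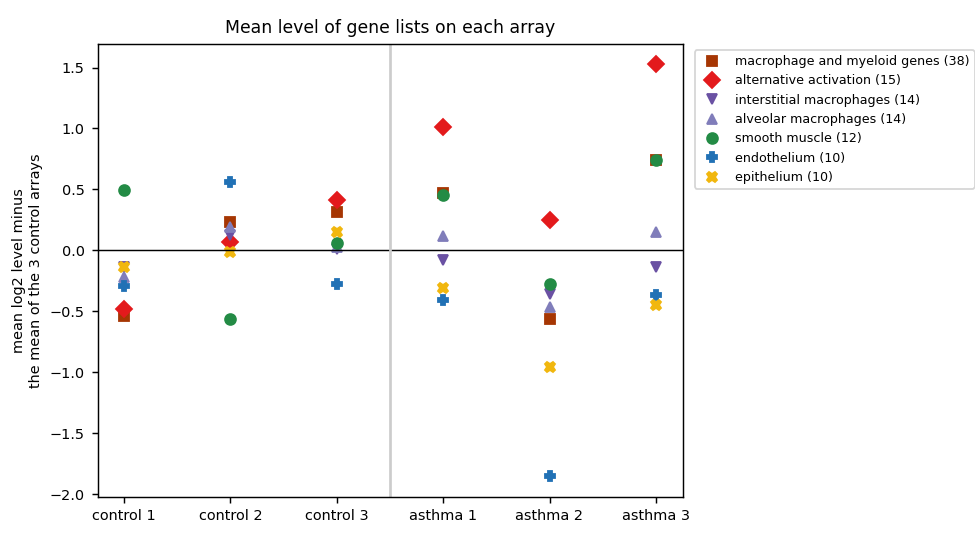
Mean log2 level of 7 gene lists on each array (horizontal axis), as the difference from the mean of the 3 control arrays (vertical axis), with the number of genes in brackets. The 38 members are above 0 on asthma 1 and 3 and below 0 on asthma 2 and control 1, the genes of alternative activation are highest on asthma 3, and the endothelial and epithelial genes are below 0 on all 3 asthma arrays.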

How the data were processed

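Arrays were of the Affymetrix Mouse Gene 1.0 ST type. The authors deposited log2 levels, 1 per probe set, made from amplified cDNA with RMA on all 6 arrays, so the values of each array depend in part on the others, asthma 2 included. The submitters' notes name affy and the methods oligo (versions and build: not given in the sources used here). Of 21225 probe sets, 20239 had 1 symbol and were tested, and 986 were not in the naming table. Arrays have no read depth, and their number limits the precision.

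Differences (asthma minus control) were fitted on the values as deposited in limma 3.58.1 (lmFit, then eBayes; R 4.3.3, statmod 1.5.0), two-sided, with Benjamini-Hochberg adjustment over 20239 genes and, as in the methods, a threshold of 0.25. The fit used control 1 to 3, asthma 1 and asthma 3. Asthma 2 was left out as the array farthest from the median on 2 principal components, and the fit with all 6 arrays is given beside it.

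The members and lists were chosen with earlier results of these data known. Values on every array are given for the 4 members of each role group with the highest mean level and for members at an unadjusted p under 0.05; Ptprc, Trem2 and the genes of other lists were added after their values were seen, except Acta2 and Rnase2a. Alternatives were all 6 arrays with and without array weights, quantile normalization or median centring on top, a filter at the percentile 25 of level, an intensity trend with robust variance, each array left out and the replicate number as a block. All 6 arrays with quantile normalization was added after the data were seen. Correlations between the deviations of same-numbered arrays were -0.107, -0.0363 and 0.0148. These values include the asthma array left out of the main fit, which stood far from the others. They therefore cannot decide whether same-numbered arrays belong together. The numbers were not taken as pairs in the main fit, and the block is given as an alternative only.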

Additional observations from a re-analysis of the deposited data

How the results depend on the processing

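With 5 arrays no member was called (0 higher, 0.0296% of all genes) and 12 were higher at an unadjusted p under 0.05 (4.53% of all genes). Above all controls lay 27 (11.9% of all genes), and the median difference was 0.62. With all 6 arrays 2 were higher at that p (1.44% of all genes) and 4 lay above (4.16%). With all 6 and quantile normalization, chosen after seeing the data, these were 3 (1.89% of all genes), 2 (5%) and a median of 0.11. Array weights, which gave asthma 2 a weight of 0.0852, called 3 members higher (1.28% of all genes), Itgax (adjusted p = 0.237), Clec7a (0.244) and Msr1 (0.232) in limma. The replicate block called 1, Wfdc17 (limma adjusted p = 0.246; 0.178% of all genes), with 29 at an unadjusted p under 0.05 (4.4%), and with all 6 arrays 3 (1.47%). In the block of 5 arrays control 2 had no partner, and 1 residual degree of freedom was left, against 3 in the main fit. Its count of 29 is therefore not firmer than the 12 of the main fit. In the fits that leave out 1 control array, 0 members were called (at most 0.247% of all genes higher, without control 3). At an unadjusted p under 0.05, 13 (without control 1, 4.1% of all genes) to 18 (without control 3, 5.42%) were higher. Above all controls lay 27 (without control 1, 17.3% of all genes) to 31 (without control 3, 19.9%). Below them lay 2 without control 1 (23.4%) and 0 without control 2 (24.7%) or control 3 (23.5%). Over all fits that leave out 1 array, the median ran from 0.33 (without control 1) to 0.75. Quantile normalization, median centring, the filter and the intensity trend with robust variance moved no count by over 1.5 times and turned no difference; the filter left Aif1 untested.

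With all 6 arrays, without and with the block, the difference turned to -0.0458 in Ptprc, -0.0645 in Cd53, -0.18 in Laptm5, -0.0164 in Lcp1, -0.13 in Tyrobp, -0.0934 in Cd14, -0.62 in Lyz2 and -0.31 in Cybb. With quantile normalization of all 6 these were -0.14, -0.10, -0.0941, -0.0875, -0.12, -0.11, -0.55 and -0.32. Array weights gave Lyz2 -0.0049. Leaving out 1 array gave Cd14 -0.0449 to 0.36 and Lyz2 -0.12 to 0.23, both lowest without control 1. The cause was not tested. With 3 arrays against 2 or 3, no single difference can pass p = 0.1 in an exact permutation test; the number of arrays limits the precision.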

Other observations

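Among 15 genes of alternative macrophage activation, 14 had both retained asthma levels above every control (11.9% of all genes) and 15 had a positive difference (43.7%). With all 6 arrays 7 of these genes lay above (4.16% of all genes) and 15 were positive (55%). None passed the adjusted p of 0.25 in limma. The list was chosen with earlier results of these data known, so its counts are not separate evidence. The genes named here were chosen after their values were seen. Retnla, which encodes the secreted protein RELMα and is also made by airway epithelium, was at 5.91, 7.56 and 8.86 in control, 10.26 and 10.39 on asthma 1 and 3, and 9.48 on asthma 2. Ccl24, the eosinophil attractant eotaxin-2, was at 5.33, 5.37 and 5.38 in control, 6.34 and 7.21 on asthma 1 and 3, and 6.30 on asthma 2. All 3 asthma arrays lay above the controls in both genes. Arg1, which encodes the arginine-degrading enzyme arginase, was at 4.93, 4.96 and 4.98 in control, 5.40 and 6.13 on asthma 1 and 3, and 5.76 on asthma 2, and differed by 0.81 (SE 0.205) with 5 arrays.

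The chitinase-like gene Chil3 was at 6.45, 8.26 and 8.12 in control, 9.20 and 9.39 on asthma 1 and 3, and 6.53 on asthma 2. Mmp12, the macrophage elastase, was at 5.44, 6.36 and 7.57 in control, 8.29 and 8.39 on asthma 1 and 3, and 6.79 on asthma 2. For these genes asthma 2 lay within the control range. Ccl8, a chemokine, was at 5.86, 5.37 and 7.38 in control, 8.31 and 8.72 on asthma 1 and 3, and 7.30 on asthma 2. Its control values spread more widely than those of Arg1 or Ccl24.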
